A study of Mus musculus with 2756 samples.

Results

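The inhibitor of differentiation genes Id1, Id2, Id3 and Id4 were followed through neuron formation in the embryonic mouse neocortex. The 4 genes were chosen by name, and each of them had a row among the 16441 genes of the deposited count table. The data came from 2756 single cells that carried FlashTag, a dye taken up by progenitors as they divide beside the ventricle. The dye was injected at embryonic day 12, 13, 14 or 15 (E12, E13, E14, E15), and the brightest labelled cells of the putative somatosensory cortex were sorted and sequenced 1, 24 or 96 h later, which gave 12 groups of a day and a time. The submitters' 15 clusters were joined by the stem of their names: AP for apical progenitors, BP for basal progenitors, N1d for neurons seen about 1 day after labelling, N4d for those seen about 4 days after it, IN for interneurons and Astro for astrocytes. Strain, genotype and sex are not given in the labels for any group, and no label names an animal.

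Id proteins are helix-loop-helix proteins that lack the basic region with which related factors grip DNA. They bind the widely expressed E proteins, so that proneural factors such as the neurogenins lose their partners. Their genes are direct targets of bone morphogenetic protein (BMP) signalling, in which receptors phosphorylate SMAD1 and SMAD5, and these enter the nucleus with SMAD4. In the developing brain Id proteins are best known for holding progenitors undifferentiated and for favouring astrocytes over neurons, while Id2 is also known in differentiated neurons.

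Id4 and Id2 held most of the family's counts and took opposite courses. Id4 was highest in apical progenitors and astrocytes, and Id2 was highest in neurons. Id1 and Id3 were scarce in the cortical neuron lineage. Id3 was high in a subset of interneurons and, with Id1, in astrocytes.

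A group held 52.3 to 99.04 M counts. Levels are given as counts per M counts (CPM) of a sum over cells, and each sum is 1 sample, because cells of a group share their source. A sum cannot tell a lower share of cells with the transcript from less transcript per cell, so the share of cells with at least 10 counts stands beside it. With no animals named, a p-value speaks of the spread among these sums alone, which may be technical. A run code in the sample names was taken as a possible batch. The labels do not explain it, and none of the 6 codes held cells of 2 collection times, so run and time cannot be told apart. The AP and Astro classes were checked against markers. Astro cells had Aqp4 at 99.2 CPM, Gfap at 35.6 CPM and Apoe at 3557 CPM, and AP cells had Pax6 at 609 CPM, Vim at 1750 CPM and Aqp4 at 0.0198 CPM. Of the AP list, Pax6, Vim, Nes, Mki67 and Top2a were higher in AP than in Astro cells. Sox2, Hes1, Hes5, Slc1a3 and Fabp7 were higher in Astro cells. The summed AP list stood at 17118 CPM in Astro cells at 96 h and at 5409 CPM in AP cells at 1 h, so it does not separate these classes.

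By GENCODE vM21 on GRCm38, Id1 lies on chr2:152736251-152737410 (plus strand), Id2 on chr12:25093799-25097140 (minus strand), Id3 on chr4:136143497-136145755 (plus strand) and Id4 on chr13:48261228-48266026 (plus strand). Their exons span 1160, 2438, 1791 and 3849 bases in the order Id1 to Id4. Id4 overlaps 2 non-coding genes on the other strand, A330033J07Rik by 1396 bases and Gm49291 by 1364 bases. Neither has a row in the table, and the library kit does not mark strand, so Id4 counts may include their reads. The RefSeq promoter table (GRCm38.p6) held 3 of the 4 members, and the upstream sequence is shown for the pair that carries most of the results. The Id4 stretch covers positions -250 to -1 from the RefSeq gene start, chr13:48260866-48261115, plus strand. The Id2 stretch covers positions -250 to -162, chr12:25096254-25096342, minus strand, which is the part outside any annotated exon. It lies before the RefSeq start but inside the gene as GENCODE bounds it. Capitals mark GGCGCC, a GC-rich element to which BMP-activated SMADs are known to bind, and the CCAAT box, which reads ATTGG on the other strand.
Id4: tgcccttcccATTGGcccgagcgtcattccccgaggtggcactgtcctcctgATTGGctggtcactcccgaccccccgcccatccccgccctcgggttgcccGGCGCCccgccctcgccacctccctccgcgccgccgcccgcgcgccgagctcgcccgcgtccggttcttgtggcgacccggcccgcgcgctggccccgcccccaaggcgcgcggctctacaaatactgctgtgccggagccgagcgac
Id2: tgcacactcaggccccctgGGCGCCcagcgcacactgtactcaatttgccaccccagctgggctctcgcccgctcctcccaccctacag
GGCGCC began at position -148 in Id4 and at -231 in Id2, and the Id3 window held none of the motifs searched. Those letters were present in 9.59% of 32851 RefSeq promoter windows, searched on both strands, and CCAAT in 33.8%. A promoter window takes in 250 bases before the start and 50 after it, so it is longer than either stretch shown. The E-box CANNTG, the site of E proteins and their partners, was present in 66.2% of windows and in the Id2 window at -196. A match is a description of the letters and does not show binding.

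**Figure D1:**
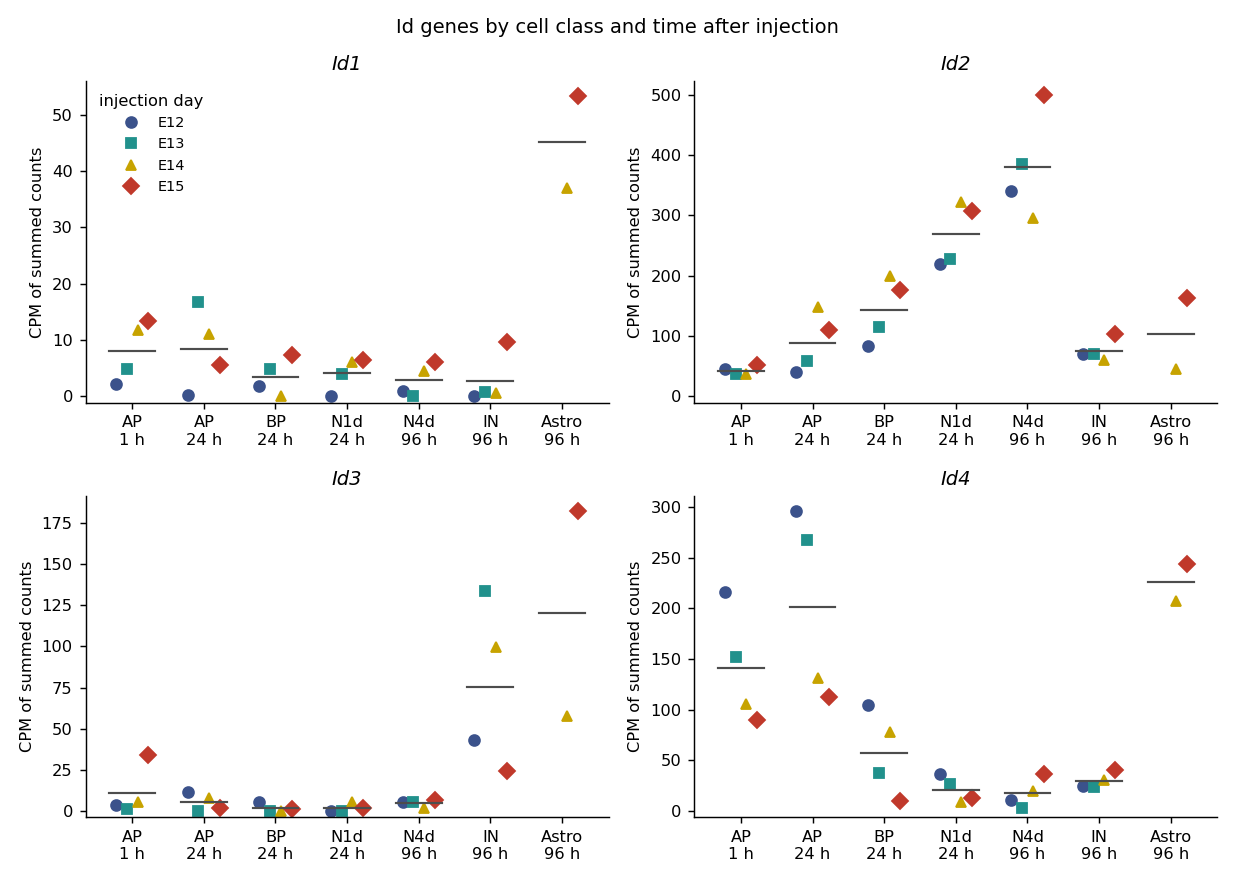
CPM of summed counts (vertical axis, linear, a scale per gene) for each Id gene by cell class and time after injection (horizontal axis). Each point is 1 injection day with at least 5 cells, and the line is the mean over days. Id2 lies highest in N4d, Id4 in AP and Astro, and Id3 in IN and Astro.

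Pooled over days and times, Id4 was the leading Id gene of apical progenitors, but it did not lead in every sum. Per kb of exon, AP cells of all days and times had 38.3 CPM of Id4, 23.6 CPM of Id2, 7.81 CPM of Id1 and 6.18 CPM of Id3. AP cells of E14 at 24 h had more Id2 than Id4 even before length correction, at 147.8 against 131.1 CPM. Per kb, AP.late cells of E15 at 24 h had 28.9 CPM of Id2 and 27.1 CPM of Id4. Before length correction, Id4 in AP cells at 1 h stood at 216.3 CPM for E12, 151.9 CPM for E13, 106.1 CPM for E14 and 89.5 CPM for E15. In BP cells at 24 h it stood at 104.7, 37.6, 78.2 and 9.80 CPM for E12 to E15, and the E14 value rests on 8 cells. In N1d cells at 24 h it stood at 36.3, 26.9, 8.92 and 12.8 CPM. All AP sums lay above all N1d sums, while the BP range met both. Id4 in IN cells at 96 h stood at 24.1 to 40.9 CPM and did not separate from N1d or N4d cells. Astro cells of E15 had 243.9 CPM (54 cells), and those of E14 had 207.5 CPM (7 cells). The classes were built by the submitters from the same cells, so levels between classes carry no test.

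The share of cells with at least 10 counts of Id4 followed the same order. It was 62.8% ± 16.0 in AP cells at 1 h, 71.3% ± 6.71 in AP cells at 24 h, 35.3% ± 23.5 in BP cells, 11.4% ± 5.15 in N1d cells and 7.90% ± 5.04 in N4d cells (SD, n = 4 injection days). Clusters of a class were not alike. BP.early had 43.9% of cells with at least 10 counts (95% exact binomial interval 34.3 to 53.9) and BP.late had 21.5% (14.5 to 29.9). Among the N4d clusters, N4d.late2 had 14.1% (9.68 to 19.7), and the other N4d clusters had 3.23% to 5.20%. All such intervals cover counting error only, and reads amplified by PCR are not independent molecules.

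**Figure D2:**
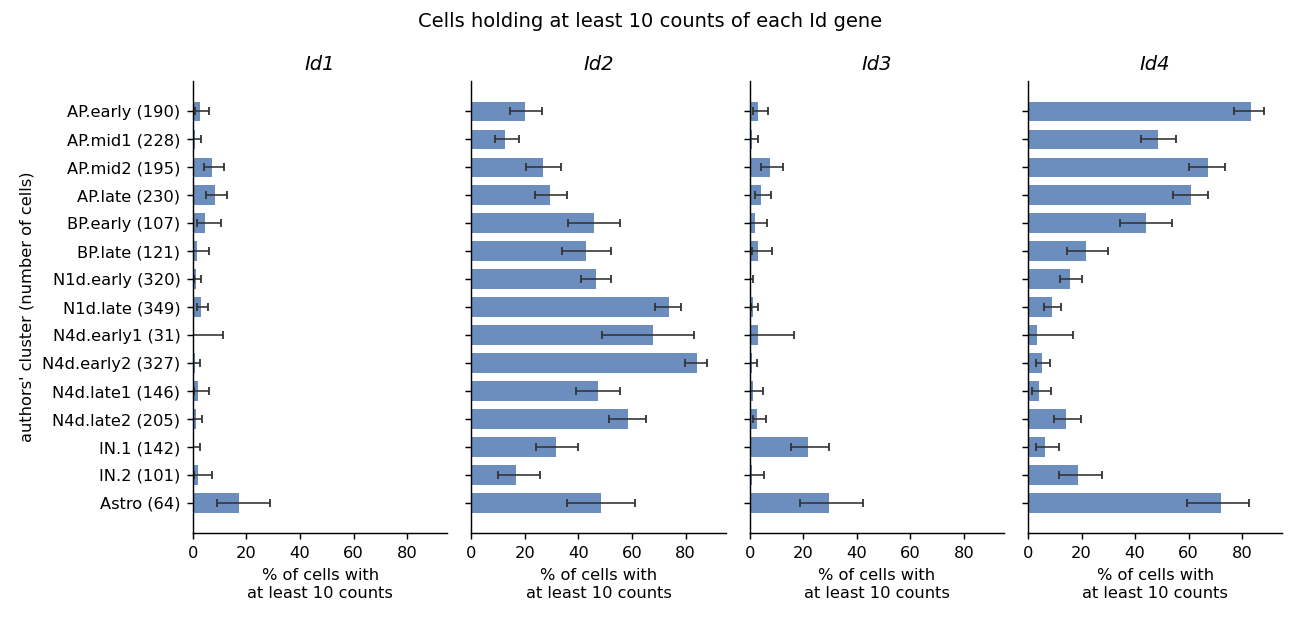
Percentage of cells with at least 10 counts of each Id gene (horizontal axis) in each of the submitters' clusters (vertical axis, number of cells in brackets). Whiskers are 95% exact binomial intervals, which cover counting error only. Id4 bars are longest in AP.early and Astro, Id2 bars in N1d.late and N4d.early2, and Id3 bars in Astro and IN.1.

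Id2 ran the other way. In AP cells at 1 h it stood at 45.5, 36.4, 36.9 and 51.6 CPM for E12 to E15. BP cells at 24 h had 84.02, 114.7, 199.6 and 177.01 CPM. N1d cells at 24 h had 219.9, 227.8, 323 and 307 CPM, and N4d cells at 96 h had 340, 385, 295.1 and 499.7 CPM. The ranges of AP cells at 1 h and of BP and N1d cells at 24 h did not overlap, and the N1d and N4d ranges did. AP cells at 24 h spanned 40.2 to 147.8 CPM and overlapped BP cells. How many other genes separate in this way was not counted. The BP sum of E14 rests on 8 cells, of which 1 held 79.03% of its Id2 counts. Interneurons at 96 h had 60.4 to 103.2 CPM, above every AP sum at 1 h, overlapping BP cells and below every N4d sum.

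Both the share of cells and the level within them were higher in neurons. Cells with at least 10 counts made up 17.4% ± 6.52 of AP (1 h), 60.9% ± 12.4 of N1d (24 h) and 68.97% ± 12.1 of N4d (96 h) cells (SD, n = 4 injection days). Within those cells the median level was 94.8 to 186.7 CPM in AP, 319 to 340 CPM in N1d and 343 to 482 CPM in N4d, across injection days. Among N4d clusters, N4d.early2 had the highest Id2 share, 84.1%, and N4d.late1 the lowest, 47.3%. N4d.early2 was present at every injection day, and its Id2 level was 387, 388, 429 and 518 CPM for E12 to E15. In N4d.late2 the levels were 192.2, 360, 308 and 489 CPM.

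In the lineage as a whole, Id2 rose at each step of time, and Id4 was lower on average at each step without passing the test. Counts of the neuron lineage, namely of N4d, N1d, BP and AP cells together, were summed per group and compared between collection times with edgeR's quasi-likelihood test, with injection day as a covariate and Benjamini-Hochberg adjustment over all 10210 genes tested (threshold 0.05). Only Id2 and Id4 of the 4 members passed the filter of 10 CPM in at least 3 of the 12 sums. The make-up of the groups changed with time. AP cells were 70.8% to 97.1% of a group at 1 h and 5.22% to 20.7% at 24 h. N1d cells were 61.5% to 78.5% of a group at 24 h, and N4d cells 54.9% to 83.1% at 96 h. A change over time in these sums therefore cannot be told apart from the change of classes. In AP cells alone Id4 was higher at 24 h, as given below.

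Id2 stood at 160.6, 184.03, 278.3 and 232.1 CPM at 24 h and at 48.03, 45.3, 34.3 and 75.6 CPM at 1 h, for E12 to E15. Every 24 h sum was above every 1 h sum. The log2 change was 2.05 ± 0.22 (SE; adjusted p = 5.73e-05 by edgeR), a rise in 4 of 4 injection days, and the comparison called 19.2% of all genes tested and 11.4% as higher. At 96 h Id2 stood at 331, 373, 294.1 and 469.8 CPM, above its own 24 h value at each of the 4 injection days. The log2 change of 96 h over 24 h was 0.83 ± 0.21 (SE; adjusted p = 0.0131 by edgeR), where 11.7% of genes were called higher. That second call was lost in 4 alternatives. The change was 0.53 (adjusted p = 0.108) with IN and Astro cells included, 0.52 (adjusted p = 0.0706) with the main class of each time alone, 0.83 (adjusted p = 0.0723) with run codes as samples and 0.74 (adjusted p = 0.0650) without injection day E15, all by edgeR. The main class setting compares classes built from the same cells, so its p-value carries no test.

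Id4 stood at 77.3, 54.9, 39.2 and 37.1 CPM at 24 h, against 211.7, 146.9, 99.1 and 78.05 CPM at 1 h, for E12 to E15. Every 24 h sum was below every 1 h sum. Its log2 change was -1.38 ± 0.51 (SE; adjusted p = 0.0786 by edgeR), which missed the threshold that 7.76% of genes passed downward. The change passed with DESeq2 (-1.40, adjusted p = 0.0121) and with each cell weighted equally in limma (-1.51, adjusted p = 0.0271). It also passed by edgeR without the 96 h E13 sum (-1.39, adjusted p = 0.0132) or the 96 h E15 sum (-1.35, adjusted p = 0.0372), neither of which belongs to the groups compared but both of which set the spread. With the main class of each time alone, N1d over AP, the change was -2.78. Those classes were built by the submitters from the same cells, so that value carries no test.

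At 96 h Id4 stood at 20.3, 4.56, 25.8 and 44.1 CPM, and the E15 sum at 96 h lay above 2 of the 24 h sums. The log2 change of 96 h over 24 h was -1.02 ± 0.53 (SE; adjusted p = 0.181 by edgeR), and 12.5% of genes were called lower. Without the 96 h E15 sum it was -1.61 (adjusted p = 0.0269 by edgeR).

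Id1 and Id3 were too low in the lineage for the filter. Id1 averaged 7.45 ± 4.24 CPM at 1 h, 4.87 ± 2.88 CPM at 24 h and 3.97 ± 2.16 CPM at 96 h (SD, n = 4 injection days). Id3 averaged 9.57 ± 12.6 CPM at 1 h, 2.54 ± 2.53 CPM at 24 h and 5.73 ± 2.81 CPM at 96 h (SD, n = 4 injection days). For both genes the spread between days was as wide as the differences between times.

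Within apical progenitors, Id4 was lower at later injection days in summed level, share and median over all cells, but the slope did not pass the test. The 4 levels at 1 h given above were lower at each later day. The share of AP cells with at least 10 counts was 85.1% at E12 (95% exact binomial interval 79.04 to 89.9), 63.7% at E13 (56.6 to 70.3), 51.7% at E14 (42.4 to 60.9) and 50.7% at E15 (43.8 to 57.6). The median AP cell had 171.1 CPM at E12, 87.7 CPM at E13, 45.3 CPM at E14 and 32.6 CPM at E15. That median takes in cells at 0, so it also reflects the share. Among lineage cells at 1 h with at least 10 counts, most of them AP cells, the median was 199.4, 169.7, 104.8 and 121.6 CPM for E12 to E15. By that measure E15 lay above E14. A single count was found in 99.4% of AP cells at E12 and in 72.8% at E15, and these shares were 95.5% and 65.9% once each cell was thinned to 100000 counts, so unequal depth left the order in place.

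**Figure D3:**
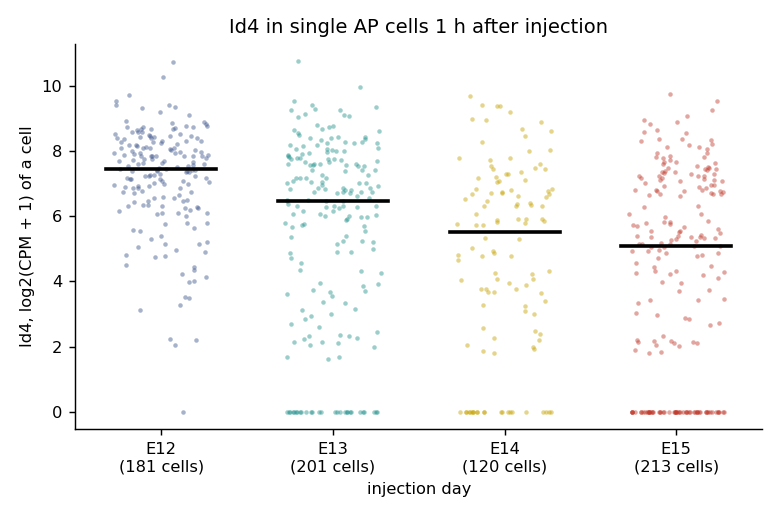
Id4 in single AP cells collected 1 h after injection, as log2(CPM + 1) (vertical axis), by injection day (horizontal axis). Each point is a cell and the bar is the median, which is lower at each later day, from 171.1 CPM at E12 to 32.6 CPM at E15, while cells at 0 are frequent at every day but E12.

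In summed level, the same order was seen inside clusters that span several days. In AP.mid1 at 1 h Id4 stood at 154.1 CPM for E13, 81.01 CPM for E14 and 61.8 CPM for E15. The E15 sum of AP.mid1 rests on 27 cells, of which 1 held 33.3% of the Id4 counts. In AP.mid2 Id4 stood at 125.5, 106.6 and 97.7 CPM for those days. Share and median cell did not keep the order in AP.mid2. Cells with at least 10 counts made up 71.2%, 63.6% and 64.5%, and the median cell had 72.9, 79.3 and 52.2 CPM. The order of summed levels was also seen within run codes, since one code held E12 and E14 (216.3 and 106.1 CPM) and another held E13 and E15 (151.9 and 89.5 CPM). The summed level of the 10 AP markers, which does not speak for each of them, did not move with Id4. It was 4103, 4615, 5472 and 7395 CPM for E12 to E15, while the 9 Astro markers, which share Slc1a3 with the AP list, stood at 334, 764, 1094 and 1685 CPM.

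Id4's slope in AP cells was -0.45 ± 0.27 log2 units per day (SE; adjusted p = 0.646 by edgeR), in a fit that called 0.991% of 10195 genes and 0.226% as falling with the day. Id2's slope there was 0.04 ± 0.11 (SE; adjusted p = 0.974 by edgeR), and without the E15 sum it was -0.18 (adjusted p = 0.788). In N1d cells Id4 had a slope of -0.58 ± 0.27 (SE; adjusted p = 0.393 by edgeR) and Id2 one of 0.20 ± 0.12 (adjusted p = 0.520), where 0.383% of genes were called and 0.177% as falling. In N4d cells Id4 had a slope of 0.66 ± 0.25 (SE; adjusted p = 0.520 by edgeR) and Id2 one of 0.12 ± 0.11 (adjusted p = 0.871), where 0.049% of genes were called, 0.0294% as rising and 0.0196% as falling. Id1 and Id3 missed the filter of this fit. Neither Id2 nor Id4 passed in any class by edgeR, DESeq2 or limma, and 1 of these 6 tests, that of Id4 in N4d cells, had an unadjusted p under 0.05 by edgeR (p = 0.0221).

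The Id4 slope had opposite signs in N4d cells and in AP and N1d cells. Whether the 3 slopes differ was tested jointly, and edgeR gave an adjusted p of 0.298 for Id4 and of 0.904 for Id2, with 0.216% of genes called. DESeq2's likelihood ratio test gave 0.0254 for Id4. The neuron slopes rest on differences between runs. Among 24 h cells, one run code covered E12 with E13 and another E14 with E15, and 96 h cells were split likewise. With run code as a block the Id4 slope was 0.00763 in N1d cells and -0.47 in N4d cells, and the Id2 slope in N1d cells was -0.0443, with adjusted p of 0.999 or above by edgeR. Within a code, Id4 in N1d cells was 26.9 CPM at E13 against 36.3 CPM at E12, and 12.8 CPM at E15 against 8.92 CPM at E14. In N4d cells it was 2.94 CPM at E13 against 11.0 CPM at E12, and 37.1 CPM at E15 against 19.7 CPM at E14.

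**Figure D4:**
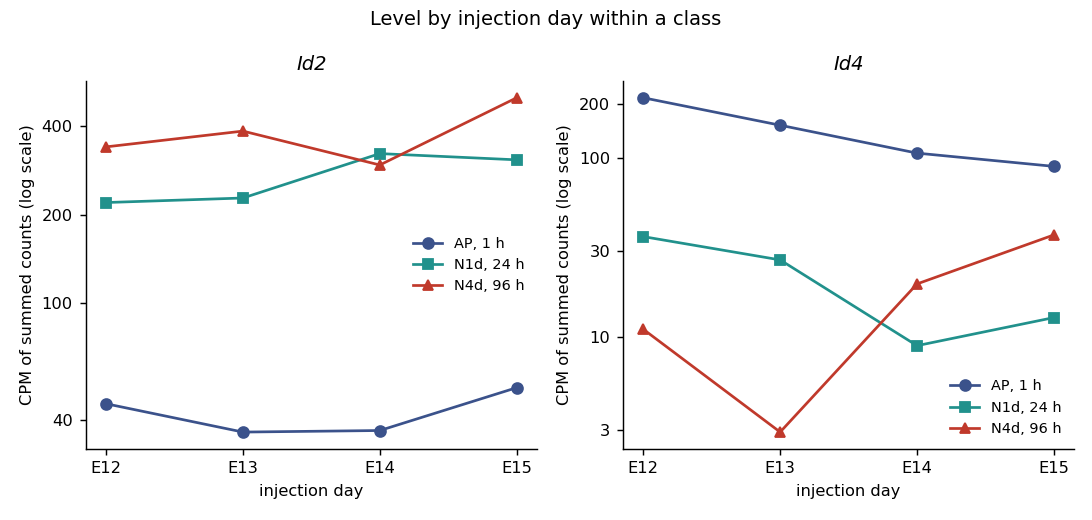
CPM of summed counts on a log axis (vertical) against injection day (horizontal) for Id2 and Id4, in AP (1 h), N1d (24 h) and N4d (96 h) cells. Each point is 1 sum. Id4 in AP cells is lower at each later day, from 216.3 to 89.5 CPM, whereas Id4 in N4d cells is lowest at E13 and highest at E15.

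Markers of progenitors and astrocytes, like Id4, were highest at E15 in N4d cells, but they were lowest at E12, whereas Id4 was lowest at E13. Their summed AP list stood at 169.5, 277.2, 414 and 927 CPM and their summed Astro list at 104.2, 176.9, 201.9 and 681 CPM for E12 to E15. Astro cells made up 22.8% of the E15 group at 96 h, against 0.410% to 2.76% of the other 96 h groups. The part of these markers in the Id4 level of N4d cells was not tested. Of N4d cells at E15, 37.7% had a count of Id4 and 14.6% had at least 10 counts.

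Apical progenitors that were still AP cells 24 h after injection had a high Id4 level. Id4 stood at 296.6, 267.2, 131.1 and 112.5 CPM at 24 h, in sums of 14, 22, 32 and 44 cells, against 216.3, 151.9, 106.1 and 89.5 CPM at 1 h, and it was higher at 24 h on 4 of 4 injection days. The log2 change was 0.48 ± 0.20 (SE; adjusted p = 0.508 by edgeR over 9346 genes). That comparison called 0.0107% of genes. Cells collected on the same embryonic day can be set side by side as well. E12 cells after 24 h had 296.6 CPM and E13 cells after 1 h had 151.9 CPM. E13 cells after 24 h had 267.2 CPM and E14 cells after 1 h had 106.1 CPM. E14 cells after 24 h had 131.1 CPM and E15 cells after 1 h had 89.5 CPM. With collection day as the covariate the change was 0.95 ± 0.22 (SE; unadjusted p = 0.00127, adjusted p = 0.278 by edgeR). The 10 neuron markers summed to 1326, 637, 780 and 678 CPM in AP cells at 24 h and to 302, 232.1, 439.9 and 525 CPM in AP cells at 1 h.

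Id2 in AP cells stood at 40.2, 59.2, 147.8 and 109.3 CPM at 24 h, against 45.5, 36.4, 36.9 and 51.6 CPM at 1 h, with a log2 change of 0.95 ± 0.39 (SE; adjusted p = 0.503 by edgeR). The 24 h sums of E13, E14 and E15 lay above all 1 h sums and that of E12 lay among them. Id1 changed by 0.30 ± 1.15 (SE; adjusted p = 0.971 by edgeR) in log2 units, with a sign that depended on the alternative. Id3 did not pass the filter.

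At 1 h, Id1 and Id3 were found in few AP cells, most often at E15. At 24 h E15 did not stand out, in sums of 14 to 44 cells. There a count of Id1 was found in 7.14%, 22.7%, 18.8% and 13.6% of AP cells for E12 to E15. Id3 there stood at 11.4, 0, 8.06 and 1.59 CPM. Id1 in AP cells at 1 h stood at 2.26, 4.90, 11.7 and 13.5 CPM for E12 to E15, with at least 10 counts in 2.21%, 1.99%, 2.50% and 7.51% of cells. A single cell held 75.6% of the Id1 counts of E14, and the largest cell of the other days held 16.8% to 32.3%. Id3 stood at 3.58, 1.53, 5.44 and 34.1 CPM, with at least 10 counts in 3.31%, 0.498%, 2.50% and 8.92% of cells. The E15 sum of Id3 was far above the others, and its largest cell held 19.1% of its counts, while the largest cells of E12, E13 and E14 held 26.3%, 96.2% and 72.5%. At E15, Id3 was highest in AP.mid2, at 61.4 CPM with 19.4% of 62 cells, compared with 19.5 CPM in AP.late and 27.3 CPM in AP.mid1.

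At 1 h, 27 AP cells had at least 10 counts of Id1 and 29 had as many of Id3. The summed AP markers had a median of 6771 CPM in the Id1 cells, against 4937 CPM in the other AP cells, and of 7057 CPM in the Id3 cells, against 4945 CPM in the other AP cells. Markers of vessels were rare in both. Of the endothelial list, of which only Pecam1 of 7 genes is in the table, at least 10 counts were found in 1 Id1 cell (3.70%) and 1 Id3 cell (3.45%), against 0.727% and 0.729% of the other AP cells. The pericyte list (3 of 5 genes in the table) reached 10 counts in 1 Id1 cell and 1 Id3 cell, against 2.33% of the other AP cells in each case. No Id1 or Id3 cell had 10 counts of the meningeal list (2 of 6 genes in the table), against 1.16% and 1.17% of the other AP cells. Both genes were found together in 4 of the 715 AP cells, where the product of their shares gives 1.10 cells.

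Over all days and times, Id3 stood at 64.98 CPM in IN cells, second to 159.8 CPM in Astro cells and above 11.1 CPM in AP cells. Id3 in IN cells at 96 h stood at 43.4, 133.6, 99.4 and 24.2 CPM for E12 to E15, in sums of 85, 44, 30 and 35 cells. All 4 lay above every N4d sum of the same age, which stood at 1.95 to 6.81 CPM. Nearly all of it came from IN.1, at 110.1 CPM, while IN.2 had 2.87 CPM. In IN.1, 21.8% of cells (95% exact binomial interval 15.3 to 29.5) had at least 10 counts of Id3, and in IN.2 0.990% (0.0251 to 5.39). Where a day gave at least 20 cells at 96 h, IN.1 had 54.97 CPM at E12 and 219.8 CPM at E13, and IN.2 had 11.1 CPM at E12 and was at 0 at E15. At 1 h, IN.2 of E15 had 1.59 CPM. Shares of interneurons within a day follow the sort and are not compared.

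Cells with Id3 in IN.1 were few and strong. Of the IN.1 cells at 96 h, 25 had at least 10 counts of Id3 and 92 did not. Lhx6, a factor of interneurons from the medial ganglionic eminence, stood at 863 CPM in these 25 cells and at 696 CPM in the other 92. Of the 8 interneuron markers, 6 were higher in the Id3 cells and 2 lower. Gad1, which makes GABA, stood at 444 CPM in the Id3 cells and at 204.7 CPM in the other cells, while Gad2, which also makes it, stood at 317 CPM in the Id3 cells and at 407 CPM in the other cells. Reln, the secreted protein reelin, stood at 37.5 CPM in the Id3 cells, of which 1 had at least 10 counts, and at 297.3 CPM in the other cells, of which 20 did. No IN.1 cell at 96 h had at least 10 counts of the pericyte or the meningeal list, and 1 had as many of Pecam1. The Astro list reached 10 counts in 31 of the IN.1 cells at 96 h. Id3 stood at 137.3 CPM in those 31, with at least 10 counts in 10 of them, and at 101.5 CPM in the other 86, with 15. The part of the Astro markers in the Id3 level was not tested. Id1 was nearly absent from these cells, at 0.132 CPM, so Id3 was there without Id1.

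Astrocytes carried all 4 Id genes. Of the 64 Astro cells, 54 came from E15. Per kb of exon, Id3 stood at 89.2 CPM, Id4 at 61.3 CPM, Id2 at 60.7 CPM and Id1 at 42.1 CPM over all Astro cells. Before length correction Id4 led, at 235.9 CPM, with Id3 at 159.8, Id2 at 147.9 and Id1 at 48.8 CPM. The order thus depends on the length correction, and the spread of reads along the transcripts was not checked. At least 10 counts of Id4 were found in 71.9% of cells (59.2 to 82.4), of Id2 in 48.4% (35.8 to 61.3), of Id3 in 29.7% (18.9 to 42.4) and of Id1 in 17.2% (8.90 to 28.7), with 95% exact binomial intervals. E15 cells had 182.4 CPM of Id3 and 53.3 CPM of Id1, and the 7 cells of E14 had 57.9 and 37.0 CPM. Id1 and Id3 were found together in 8 Astro cells, where the product of their shares gives 3.27 cells. With 1 large sum, no test between injection days is possible.

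The Astro class also held markers of other types, in values that bear on Id1 and Id3, since vessel-associated cells are known to express both. Pdgfrb, a receptor of pericytes, stood at 123.1 CPM and Rgs5 at 46.9 CPM, while Abcc9 was at 0. The pericyte list (3 of 5 genes in the table) summed to 186.02 CPM at E15 and 4.35 CPM at E14, and reached at least 10 counts in 29 of 64 cells. Id3 stood at 186.5 CPM in those 29 cells and at 135.4 CPM in the other 35. Id1 stood at 40.2 CPM in those 29 cells and at 56.7 CPM in the other 35. At least 10 counts of Id3 were found in 9 of the 29 and in 10 of the 35 cells. In the 5 cells with at least 10 counts of the meningeal list, Id3 stood at 403 CPM and Id1 at 130.8 CPM, and without them the Astro levels were 139.5 CPM of Id3 and 41.95 CPM of Id1. The 6 cells with Olig1 or Olig2, factors of the oligodendrocyte lineage, had 430.4 CPM of Id2 and 100.3 CPM of Id4, and the other 58 had 112.3 CPM of Id2 and 252.9 CPM of Id4. All 64 Astro cells had at least 10 counts of the 10 neuron markers. These summed to 1632 CPM there, against 369 CPM in AP cells at 1 h and 9789 CPM in N4d cells at 96 h. The 8 interneuron markers reached 10 counts in 16 Astro cells, with Id2 at 140.6 CPM, against 150.1 CPM in the other 48. The part of the neuron markers in the Id2 level of Astro cells was not tested.

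The pathway above the Id genes was read from lists of BMP ligands, receptors, SMADs, antagonists and inhibitors in the same lineage fit. Of 13 ligands listed, Bmp7 and Bmp8b are in the table and neither passed the filter, and the others were not analysed here. Bmp7 averaged 4.32 CPM at 1 h in the lineage, with a highest sum of 10.7 CPM, and stood at 18.6 CPM in Astro cells. Of 7 receptors, 6 were tested. Bmpr1a, a type I BMP receptor, fell at 24 h over 1 h by 0.89 ± 0.28 on the log2 scale (SE; adjusted p = 0.0389 by edgeR), and edgeR called no other receptor, with a list median of -0.11 against 0.00 for all genes tested. At an unadjusted p under 0.05 edgeR had 3 receptors, of which 1 was higher, Acvr1 (0.99, unadjusted p = 0.0277 by edgeR). DESeq2 and limma called 2 receptors each, and all of their calls were lower. The share called over all genes by edgeR was 19.2% at 24 h over 1 h and 24.2% at 96 h over 24 h, and the counts of each list stand beside these. At 96 h over 24 h, the type I receptor Acvr1 rose by 1.34 ± 0.40 and the type II receptor Acvr2a by 1.06 ± 0.31, whereas Acvr2b fell by 1.25 ± 0.33 (SE; adjusted p = 0.0292, 0.0246 and 0.0165 by edgeR, in that order). The list median was 0.06, against -0.03 for all genes.

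Of the SMADs, Smad1, Smad4 and Smad5 were tested. At 24 h over 1 h edgeR, DESeq2 and limma each called 0 of the 3, with 0 at an unadjusted p under 0.05 by edgeR and a median of -0.26. Smad5 fell at 96 h over 24 h by 0.59 ± 0.19 (SE; adjusted p = 0.0364 by edgeR), with a list median of -0.14. There DESeq2 called 1 of the 3 and limma 0. Secreted antagonists keep BMPs from their receptors, and 3 of 13 were tested. Fstl1 fell at 24 h over 1 h by 0.75 ± 0.22 (adjusted p = 0.0262), and Twsg1 and Bmper, which can act for or against BMP, fell at 96 h over 24 h by 1.15 ± 0.24 (adjusted p = 0.00451) and 1.93 ± 0.49 (adjusted p = 0.0135), all with SE and by edgeR. The medians of that list were -0.75 and -1.15. At 24 h over 1 h DESeq2 called 1 of these 3 and limma 2, and at 96 h over 24 h DESeq2 called 2 and limma 1. Inside the cell, 5 of 8 inhibitors were tested, and Ski, a repressor bound to SMADs, rose at 96 h over 24 h by 0.98 ± 0.26 (SE; adjusted p = 0.0147 by edgeR), the only call by edgeR, with medians of -0.22 and -0.01. At 24 h over 1 h edgeR called 0 of these 5, with 1 at an unadjusted p under 0.05, and DESeq2 and limma called 1 each. Smad6 and Smad7, which BMP signalling itself induces, stayed under the filter, at 3.94 and 6.79 CPM on average at 1 h. Of 4 other BMP-responsive genes, Hey1 alone was tested, and it fell at 96 h over 24 h by 2.48 ± 0.48 (SE; adjusted p = 0.00284 by edgeR).

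**Figure D5:**
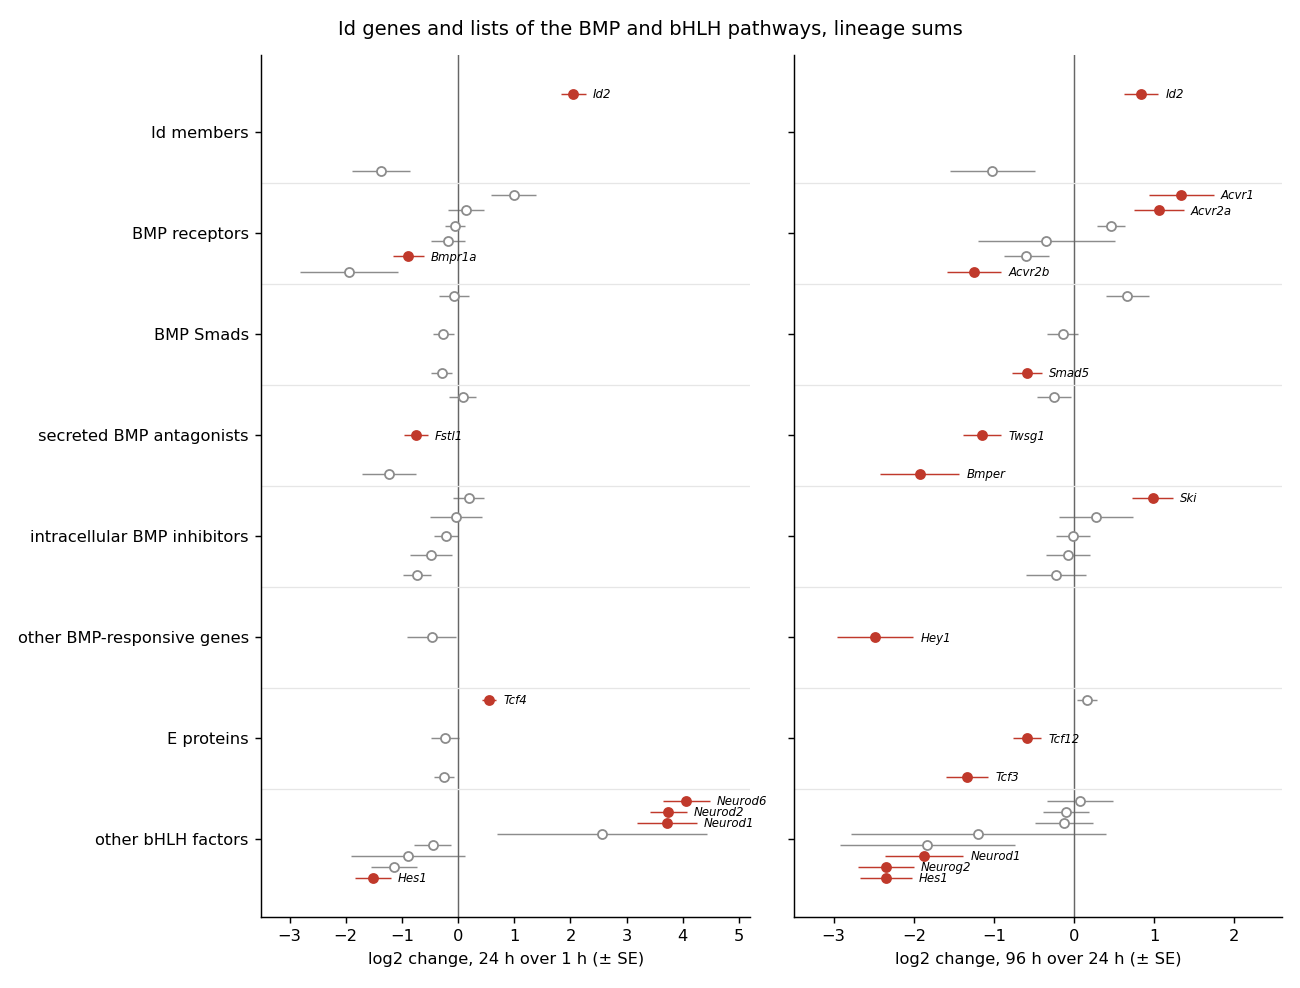
Log2 change with its SE (horizontal axis) for each gene tested in the Id, BMP and bHLH lists (rows), for 24 h over 1 h (left) and 96 h over 24 h (right) in lineage sums. Filled red points passed the adjusted p threshold of 0.05 and are named. Id2 lies right of 0 in both panels, and the open point left of 0 in the row of Id members is Id4.

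The partners of Id proteins changed as well. The 3 E proteins were tested. Tcf4 rose at 24 h over 1 h by 0.55 ± 0.12 (SE; adjusted p = 0.00816 by edgeR) and averaged 2148 CPM at 24 h, against 1457 CPM at 1 h. Tcf3 fell at 96 h over 24 h by 1.34 ± 0.26 (adjusted p = 0.00304) and Tcf12 by 0.59 ± 0.17 (adjusted p = 0.0256), with SE and by edgeR. The list medians were -0.23 and -0.59. DESeq2 and limma each called 1 E protein at 24 h over 1 h, and at 96 h over 24 h DESeq2 called 2 and limma 1. Of the other bHLH factors, 8 of 11 were tested. At 24 h over 1 h, 3 were called higher and 1 lower, with a median of 1.05. Of all genes tested, 11.4% were called higher and 7.76% lower. The neuronal factors Neurod2 and Neurod6 rose by 3.74 ± 0.32 (adjusted p = 1.79e-05) and 4.06 ± 0.42 (adjusted p = 4.43e-05), and Hes1, a Notch effector of progenitors, fell by 1.51 ± 0.32 (adjusted p = 0.00531), with SE and by edgeR. At 96 h over 24 h, 3 were called lower and 0 higher by edgeR, with 0 higher also by DESeq2, by limma and at an unadjusted p under 0.05, and a median of -1.52. Of all genes tested there, edgeR called 12.5% lower and 11.7% higher. Hes1 fell by 2.35 ± 0.32 (adjusted p = 0.000314) and the proneural factor Neurog2 by 2.35 ± 0.35 (adjusted p = 0.000538), with SE and by edgeR.

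For the injection day slopes, their difference and AP cells at 24 h over 1 h, edgeR called 0 genes of the BMP and E protein lists. Over these 5 comparisons, 13 tests of such genes had an unadjusted p under 0.05, and DESeq2 called 3 and limma 0. Of 21 tests each, the AP, N1d and N4d slopes and their difference gave 2, 3, 4 and 2 of the 13. AP cells at 24 h over 1 h gave 2 of 22. Among all 10195 genes the slopes and their difference gave 1044, 1309, 803 and 996 in that order. AP cells at 24 h over 1 h gave 852 of all 9346 genes. Among the other bHLH factors, Neurod6 alone was called for the AP slope, at 0.62 ± 0.09 log2 units per day (SE; adjusted p = 0.0108 by edgeR), and for the difference of slopes (adjusted p = 0.0218 by edgeR).

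The genes most like each member were ranked by Pearson correlation of log2(CPM + 1) over 35 sums of a cluster in a group with at least 20 cells, among 7462 genes with a mean of at least 20 CPM. The sums share libraries and depth, and the values are a description. For Id2 the first 5 were Zbtb18 (r = 0.91), Neurod2 (0.89), Neurod6 (0.87), Tbr1 (0.87) and Nrp1 (0.86). For Id4 they were Tacc1 (0.80), Gas1 (0.77), Ttyh1 (0.76), Nr2e1 (0.76) and Fhl1 (0.75). For Id1 they included Ppap2b (0.71), Cpne3, Mfge8 and Rgcc, and for Id3 they began with Sema6a (0.65) and Dmd (0.64), followed by Csdc2, Cdk14 and Chm. Between members, Id2 and Id4 had r = -0.59, Id1 and Id4 had r = 0.42, and Id1 and Id3 had r = 0.05. In single AP cells at 1 h, 88 of 715 had at least 10 counts of both Id2 and Id4, where the product of their shares gives 80.9 cells.

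The depth of low counts limits the shares with a single count. Of the cells with any count, 58.3% had fewer than 10 for Id1, 54.9% for Id3, 38.3% for Id4 and 33.6% for Id2. In N4d cells of E15, Id3 had a count in 27.7% of cells and at least 10 counts in 3.85%. In N1d cells of E12 and E13 Id3 had no count, which at a limit of 3 cells allows up to 1.70% and 1.95% of cells with a count.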

How the data were processed

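Per the labels, cells were captured on a C1 HT chip, cDNA was made with SMART-Seq v4 and libraries with Nextera XT. The deposited table held whole counts per gene and cell, not normalized by the authors. Each cell's counts summed to nearly the read number in its label (lowest ratio 0.987), so they were taken as reads. Per the submitters' processing notes, GRCm38, TopHat2 2.0.13 and UMI-tools were used, with no role named. The counter, the annotation and the filters are not given in the sources used here. A group held 134 to 301 cells with 52.3 to 99.04 M counts, and a cell a median of 328910 counts. No cell columns were identical, and no chip position was shared by 2 cells.

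Counts were summed over cells, never treated as replicates, and levels are CPM. Lineage sums (128 to 268 cells) were fitted by time with injection day as a covariate, class sums (120 to 213 cells) by a line on injection day for each class, and AP sums at 24 h and 1 h with injection day. Genes with at least 10 CPM in at least 3 sums were tested in edgeR 4.0.16 (quasi-likelihood F-test after TMM scaling, R 4.3.3) (biological coefficient of variation 44.1%, 46.3% and 64.8%), with limma 3.58.1 and DESeq2 1.42.0 as alternatives. The fits were tested on simulated data. Each alternative changed 1 choice (scaling, tool, filter, cell weight, cells, sample unit, covariate, block or a sum left out), except that equal weight per cell went with limma in place of edgeR. Tables were handled in Python 3.11.15 with pandas 2.3.3, numpy 2.4.6 and scipy 1.17.1.

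Each member that passed the filter is named in every comparison. From each pathway list, up to 2 genes with the smallest p in each direction among those called are named, and for likeness the 5 genes with the highest r. A gene that this rule names for Id1 is not reported here. Members of the IN.1 comparison beside Id3 (Lhx6, Gad1, Gad2, Reln) and cases named for their marker values were chosen after their values were seen. The members, lists and tests were chosen with earlier results of these data known.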

Additional observations from a re-analysis of the deposited data

Results flagged for a closer look

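Of 24 groups of 4 injection days (each member in each class and time), 2 had a day standing far from the other 3, where chance flags about 1 in 20. Id3 in AP cells at 1 h was at 34.1 CPM for E15, while the other days were at 1.53 to 5.44 CPM. The largest cell of that sum gave 19.1% of the Id3 counts. Id1 in IN cells at 96 h was at 9.57 CPM for E15, while the other days were at 0.0847 to 0.850 CPM. That sum held 35 cells, and 1 cell gave 97.8% of its Id1 counts.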

How the results depend on the processing

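Depth and the number of sums limit these results. Each group is 1 sum per day and time, low members miss the filter, and run and time cannot be told apart. No paired analysis was possible because the labels give no replicate numbers that groups share, but sums can be matched by injection day as a factor. Alternatives on E15, injection day as a factor, AP.late cells in the slopes and at least 10 counts were chosen after seeing the data. Of the tests of single Id genes outside the leave-one-out fits, 91 kept their direction and side of the threshold, 4 became stronger, 4 weaker and 6 reversed. The causes were not tested.

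The share of tested genes called between 24 h and 1 h (19.2% as reported) was 31.9% with the main class of each time and 10.4% with run codes as samples. Between 96 h and 24 h (24.2% as reported) it was 12.5% with run codes as samples and 16.7% without E15. DESeq2 called 3.36% for the AP slope (0.991% by edgeR), 3.79% for the N1d slope (0.383%), 1.63% for the N4d slope (0.049%), 2.81% for the difference of slopes (0.216%) and 2.15% for AP cells at 24 h over 1 h (0.0107%). With no filter on low counts, edgeR called 0.292%, 0%, 0.0122%, 0.0547% and 0% in that order. With run code as a block it called 0.324%, 0%, 0.00981% and 0% for the first 4. Cells of equal weight in limma gave 0.834% for the N1d slope and 0.0214% for AP cells at 24 h over 1 h. Without AP.late cells, edgeR called 0.226% for the N1d slope, 0.0295% for the N4d slope and 0% for AP cells. Where edgeR called 0 genes, those at an unadjusted p under 0.05 numbered 1899 (N1d, no filter), 1833 (AP cells, no filter), 463 (N1d, block), 569 (difference, block) and 702 (AP cells without AP.late). With injection day as a factor edgeR called 16.6% at 24 h over 1 h, 21.2% at 96 h over 24 h and 0% for AP cells, where 647 genes had an unadjusted p under 0.05.

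Leaving out each sum in turn gave 0.576% to 1.25% for the AP slope, 0% to 0.537% for the N1d slope, 0.0299% to 0.0990% for the N4d slope, 0.139% to 0.318% for the difference and 0% for AP cells at 24 h over 1 h. At an unadjusted p under 0.05 the fits with 0 calls had 1279 genes for the N1d slope, without N4d E15, and 497 to 1238 for AP cells. The same fits gave -1.63 to -1.11 for Id4 at 24 h over 1 h, -1.61 to -0.58 for Id4 at 96 h over 24 h, -0.18 to 0.22 for the Id2 slope in AP, -0.12 to 0.17 for the Id2 slope in N4d and -0.98 to 0.68 for Id1 in AP cells at 24 h over 1 h. By edgeR, Id4 passed at 24 h over 1 h without 96 h E13 or 96 h E15, and at 96 h over 24 h without 96 h E15. The sign turned for Id2 in AP and in N4d without the E15 sum of that class, and for Id1 without 24 h E13.

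The Id4 change of 24 h over 1 h was -1.40 with DESeq2 and -1.51 with equal weight, both past the threshold. With the main class it was -2.78, a difference between classes that carries no test. The Id2 change of 96 h over 24 h was 0.53 with all cells, 0.52 with the main class, 0.83 with run codes and 0.74 without E15, none past it. With the run block, the slope of Id2 in N1d was -0.0443, of Id4 in N1d 0.00763 and of Id4 in N4d -0.47. The adjusted p of the Id4 slope difference was 0.0254 with DESeq2. The Id1 change in AP cells was -0.0026 with equal weight, -0.42 with collection day as covariate and -0.63 with injection day as a factor.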
